A study of Caenorhabditis elegans with 4 samples.

Results

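The hsp-16 genes of Caenorhabditis elegans encode small heat shock proteins, and 6 of them were described here: hsp-16.1, hsp-16.11, hsp-16.2, hsp-16.41, hsp-16.48 and hsp-16.49. They were chosen by name, out of 19985 protein-coding genes of the assembly WBcel235 (ce11), and each was examined over its gene body and 1000 bp to each side. All 6 lie on chromosome V in 3 divergent pairs, hsp-16.2 with hsp-16.41, hsp-16.1 with hsp-16.48, and hsp-16.11 with hsp-16.49. hsp-16.2 (WBGene00002016, chrV:1804334-1804957, minus strand) and hsp-16.41 (WBGene00002018, chrV:1805178-1805875, plus strand) stand alone. Elsewhere on the chromosome, hsp-16.1 (WBGene00002015, chrV:9087293-9087782, minus), hsp-16.48 (WBGene00002019, chrV:9088131-9088617, plus), hsp-16.49 (WBGene00002020, chrV:9089280-9089766, minus) and hsp-16.11 (WBGene00002017, chrV:9090077-9090604, plus) follow one another. The data are peak lists of a ChIP-seq experiment, in which DNA bound to a protein is recovered with an antibody and sequenced, on the zinc finger protein SEA-2 tagged with GFP. The 4 biological replicates were whole L3 larvae, males and females pooled, of strain OP193, which carries the mutation unc-119(ed3) and the integrated transgene wgIs193, with sea-2 fused at its C terminus to TY1, EGFP and FLAG and with a rescuing copy of unc-119. The samples form 1 group with no contrast, and the labels give no heat treatment and no growth temperature. Replicates 1 and 2 are labelled with a fragment size range of 150 to 350 bp and the stock centre as source of the worms, and replicates 3 and 4 with sonication and the laboratory as source.

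Small heat shock proteins carry an alpha-crystallin domain and hold unfolding proteins so that they do not aggregate. The hsp-16 genes are nearly silent in worms at normal growth temperature and are strongly induced by heat. Their induction needs HSF-1, the heat shock transcription factor, which binds as a trimer to heat shock elements, repeats of GAA and its reverse complement TTC in alternating orientation. SEA-2 is known as an autosomal signal element in sex determination and as a regulator of larval developmental timing. A peak says where the tagged protein was recovered with DNA, not that a gene was regulated, and in whole larvae a site in a few cells and a weaker one in many cannot be told apart.

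The sequences between the divergent genes are shown because the peak and its absence are both set out on them below. The stretch between the annotated starts of hsp-16.2 and hsp-16.41 is followed by the aligned stretch between hsp-16.1 and hsp-16.48, both on the plus strand of WBcel235, 5′ to 3′, with matches to the heat shock element words TTCNNGAA and GAANNTTC in capitals.
hsp-16.2/hsp-16.41, chrV:1804958-1805177: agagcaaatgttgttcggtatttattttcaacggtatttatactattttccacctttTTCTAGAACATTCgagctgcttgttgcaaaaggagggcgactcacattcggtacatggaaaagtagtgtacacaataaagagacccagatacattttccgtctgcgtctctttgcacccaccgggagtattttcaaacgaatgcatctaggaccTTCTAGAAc
hsp-16.1/hsp-16.48, chrV:9087809-9088028: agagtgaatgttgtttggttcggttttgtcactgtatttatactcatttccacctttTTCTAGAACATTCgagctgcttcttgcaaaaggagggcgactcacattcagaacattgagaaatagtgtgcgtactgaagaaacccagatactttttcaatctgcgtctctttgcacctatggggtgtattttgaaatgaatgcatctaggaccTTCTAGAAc
The 2 stretches of 220 bp were identical at 185 positions (84.1%), and the corresponding stretch of hsp-16.11 and hsp-16.49, chrV:9089869-9090088 on the minus strand, had the same letters as that of hsp-16.1 and hsp-16.48. The capitals at the right-hand end of both are the start of a second copy of TTCTAGAACATTC, which runs on for a few bases beyond the stretch shown.

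One of the 3 pairs, hsp-16.2 with hsp-16.41, held a SEA-2 peak between its coding starts in every list, and the other 2 pairs held none there in any list. hsp-16.2, a heat-inducible chaperone widely used as a reporter of stress, and hsp-16.41, its divergent partner, both had the same final peak in their windows, chrV:1805012-1805351. The final list contains the strongest 7.98% of the 3912 peaks called on all replicates together. That pooled list, like the replicate lists, includes background regions by design, with −log10 q-values down to 0.017. A pooled summit outside the final list is therefore weaker evidence of a SEA-2 site. Thus 2 of 6 hsp-16 genes had a final summit, where 1.62% of all protein-coding genes did and 1.45% of those of at most 1000 bp, a length that fits every hsp-16 gene. In the pooled list the count was again 2 of 6, beside 17.2% of all protein-coding genes and 10.7% of the short ones. Both counts come from 1 shared peak. The other 4 genes lie in repeated sequence, where the lists held almost no peaks, as set out below. Their missing summits cannot be read as missing SEA-2.

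The shared peak had a signal value, given by the authors' peak caller on a scale that is not stated, of 80.7 in the final list, whose median was 73.7. Its rank by signal was 106, and it was the 9th strongest of 30 final peaks on chromosome V. In the pooled list, where its rank was also 106, its signal was 2.30 times the list median. In the final list, 33.7% of the peaks had a higher signal.

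In the single replicates the peak ranked 96 in replicate 1, 528 in replicate 2, 201 in replicate 3 and 238 in replicate 4. The lists held 23684 peaks in replicate 1 and 30000 in each of the others, so these ranks lay 0.405%, 1.76%, 0.670% and 0.793% from the top, with a mean of 0.907% ± 0.591 (SD, n = 4). Replicate 2 was the lowest placed, and replicate 1, which has the same labels, was the highest. Its signal was 38.7, 11.02, 19.8 and 15.03 in replicates 1 to 4. Relative to the median of each list, the signal was 3.07, 2.41, 2.87 and 2.51 times as high, with a mean of 2.71 ± 0.306 (SD, n = 4). On that relative scale replicate 2 was again the lowest, and the values of replicates 1 and 2 enclosed those of replicates 3 and 4, so the replicates with different source and fragmentation labels overlapped.

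Replicates were also compared through their strongest peaks, as many of each as the final list holds. The hsp-16.2/hsp-16.41 peak was among the strongest of replicates 1, 3 and 4, and not of replicate 2. The hsp-16 genes with such a summit numbered 2, 0, 2 and 2 of 6 in replicates 1 to 4, or 1.5 ± 1 (SD, n = 4), where 1.71%, 1.52%, 1.62% and 1.59% of all protein-coding genes had one. Of all final peaks, 117 (37.5%) were found among the strongest of at least 3 replicates, and 34 of these in all 4. The final peaks that ranked above the hsp-16.2/hsp-16.41 peak made up 29.2%, 64.7%, 43.3% and 34.9% of the final list in replicates 1 to 4. Replicate 2 was the only one in which most final peaks ranked above it.

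**Figure D1:**
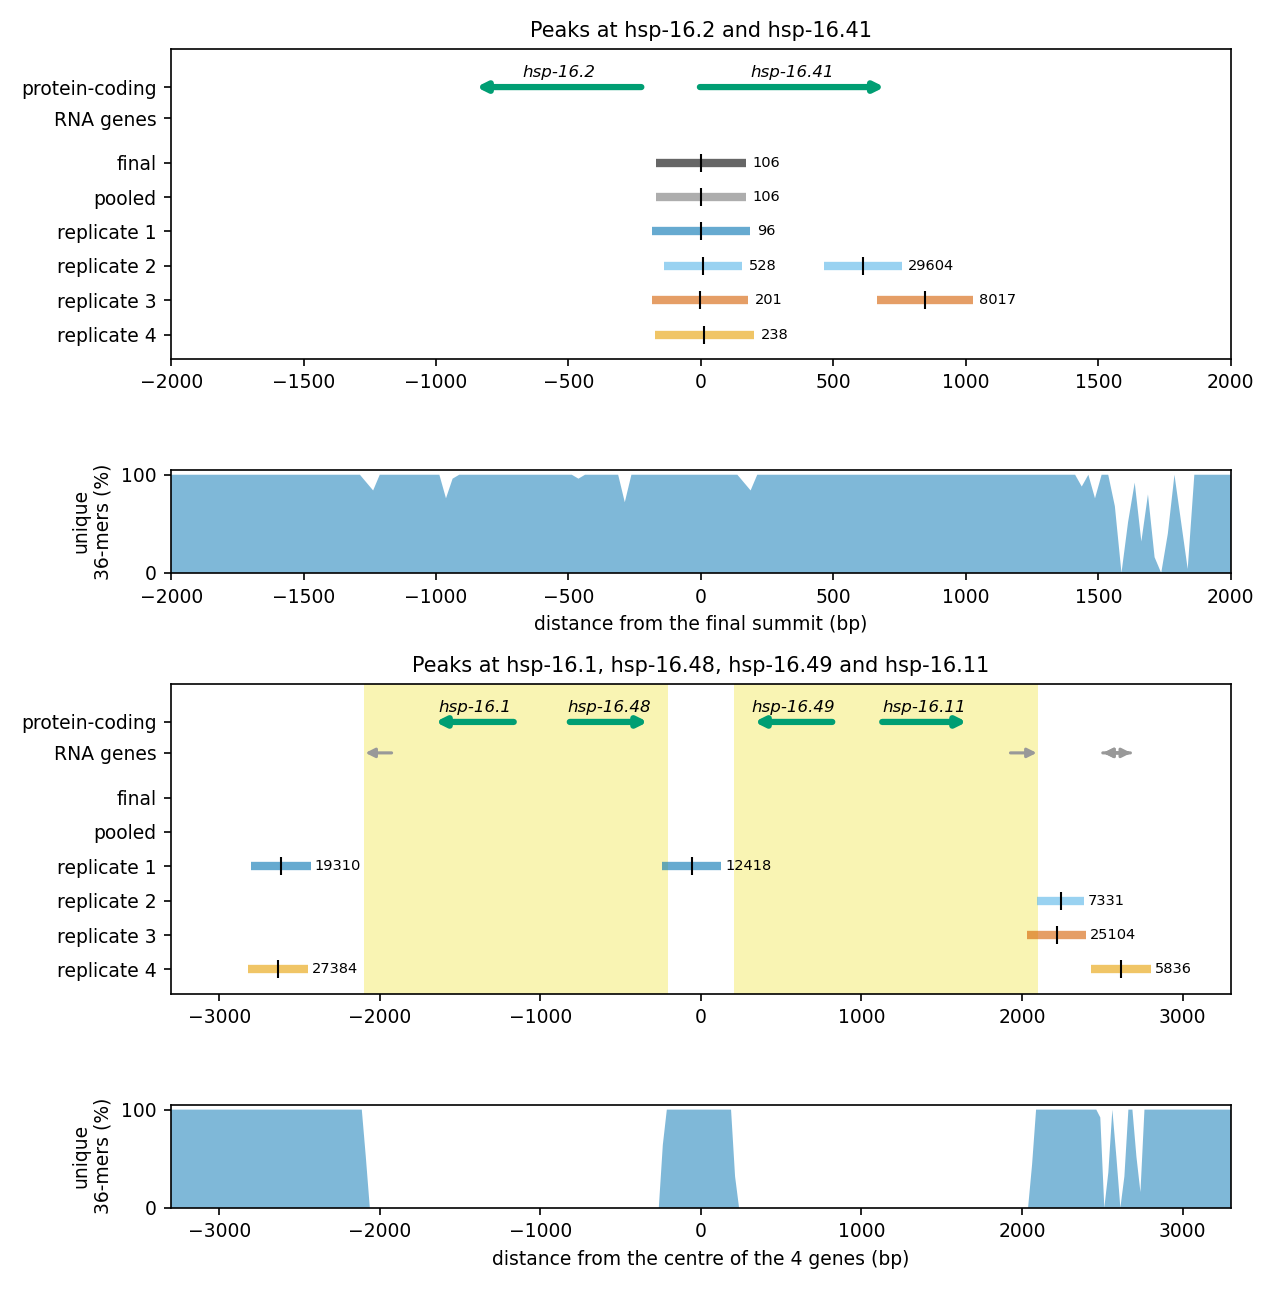
Peaks by list at hsp-16.2 and hsp-16.41 (upper map, distance from the final summit in bp) and at the 4 duplicated genes (lower map, distance from their centre in bp), with genes as arrows, peaks as bars, summits as ticks and ranks in the list beside them. The strip under each map gives the share of 36-mers, in percent, that occur once in the genome, and yellow marks the 2 arms of an inverted repeat; the peak at hsp-16.2 and hsp-16.41 is present in all 6 lists, and no summit lies within an arm.

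The summits of the shared peak fell within 17 bp of each other. They lay at positions 1805184, 1805190, 1805178 and 1805195 of chromosome V in replicates 1 to 4, and at 1805182 in the final list. The largest distance of a replicate summit from the final one was 13 bp, against a median of 72.5 bp over the 290 final peaks with an overlapping peak in all 4 replicates. Of those 290, 19 (6.55%) were as closely placed.

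The peak was shared by the pair but not centred on it. Its summits lay 8.75 ± 7.37 bp (SD, n = 4) after the annotated start of hsp-16.41, in the annotated 5' UTR, and 84.25 ± 7.37 bp before its coding start. They lay 229.75 ± 7.37 bp upstream of the annotated start of hsp-16.2. From the midpoint of the 2 coding starts the mean offset was 89.25 ± 7.37 bp toward hsp-16.41, and all 4 replicates lay on that side. Of the 340 bp of the final peak, 174 lay within hsp-16.41 and 166 between the genes. Many worm transcripts are trans-spliced, and an annotated start need not be where transcription begins.

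The summits lay beside the heat shock element copy nearer to hsp-16.41. The 346 bp between the coding starts of hsp-16.2 and hsp-16.41 held 4 matches to the element words, 2 of TTCNNGAA and 2 of GAANNTTC, each searched on both strands. They overlap in pairs as 2 copies of TTCTAGAACATTC, at chrV:1805015-1805027 and chrV:1805169-1805181. Measured from the centre of the second copy, the summits were 9, 15, 3 and 20 bp toward hsp-16.41 in replicates 1 to 4, a mean of 11.75 ± 7.37 bp (SD, n = 4). The summit of replicate 3 fell inside the word and the others 3 to 14 bp beyond it. The first copy was centred 161 bp from the final summit on the hsp-16.2 side, and no list had a summit there.

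In the final and pooled lists the share of peaks with at least 1 heat shock element word was below that of promoters, as a description with no test. In 300 bp windows centred on the summits, 18.3% of final peaks and 26.3% of pooled peaks held TTCNNGAA or GAANNTTC, against 32.5% of 19973 promoter windows of the same length (250 bp before to 50 bp after the annotated start). At least 2 matches were held by 5.13% of final peaks, 5.57% of pooled peaks and 7.69% of promoters. For 3 or more matches the shares were 1.92% (6 final peaks), 1.20% and 1.42%, so the final share was then above that of promoters. The hsp-16.2/hsp-16.41 peak was the only final peak whose window held the whole 13-base word. The word was found in 7 of the 19973 promoters, and the promoters of all 6 hsp-16 genes are among these 7. That count is therefore no background apart from the hsp-16 genes. That word, chosen after the interval was read, occurred 254 times in the genome. Of the 141 occurrences in mostly unique sequence (at least 50% unique 36-mers in the surrounding 340 bp or so), 2 were in final peaks, both of them at hsp-16.2/hsp-16.41, and 3 in pooled peaks. In the whole replicate lists 18, 2, 20 and 21 of these 141 were in a peak in replicates 1 to 4, with replicate 2 far below the others. The share of the genome covered by the peaks of each list was not computed. These counts therefore do not show whether the word is more frequent in peaks than elsewhere. A match here is a run of letters and not evidence of HSF-1 binding.

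The motif GAGAGA, present in 65.1% of final windows, 35.99% of pooled windows and 21.8% of promoters, had no match between the coding starts of any hsp-16 pair. The TATA-like word TATAAA was found once in each pair, 70 bp from the coding start of hsp-16.2 in the first, and in 15.4% of final windows and 37.9% of promoters. On the side of hsp-16.41 the word TATATAA, added after the interval was read, was centred 24 bp from the final summit and lay 62 bp before the coding start. It thus lay after the annotated start of hsp-16.41, not before it. Of final windows 4.17% held this word, and of promoters 8.43%. Within 50 bp of the final summit the GC content was 48.5%, beside 33.7% and 25.7% in windows 250 bp to the left and right. The median of the final peaks was 50.5%, so the site was close to the usual final peak in base composition.

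The 4 genes of the other 2 pairs, hsp-16.1, hsp-16.48, hsp-16.49 and hsp-16.11, encode chaperones of the same family and sit together at chrV:9087293-9090604. No final or pooled summit lay in any of their windows. The closest pooled summit, at position 9095861 (rank 791 of 3912, signal 43.3), was 5257 bp beyond hsp-16.11 and 406 bp upstream of F21C10.10 (WBGene00017659). In the whole replicate lists, which include background regions by design, at least 1 summit lay in the windows of 5, 3, 3 and 4 of the 6 hsp-16 genes in replicates 1 to 4. The same was so for 65.3%, 73.5%, 72.6% and 73.8% of all protein-coding genes, and for 47.6%, 56.2%, 54.8% and 57% of short ones, so most genes of the genome had a summit of this kind.

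Each of the weak summits near the 4 genes lay away from the divergent starts. In replicate 1 a summit at position 9088892 (rank 12418, 52.4% down the list) was downstream of both hsp-16.48 and hsp-16.49, whose ends face each other. Another, ranked 19310, was 960 bp from the end of hsp-16.1, near the edge of its window. Replicate 4 had a summit 978 bp from hsp-16.1, ranked 27384. Downstream of hsp-16.11 there were summits 584 bp away in replicate 2 (rank 7331), 560 bp away in replicate 3 (rank 25104) and 962 bp away in replicate 4 (rank 5836), the last at the overlapping RNA genes T27E4.12, T27E4.15 and T27E4.22. The window of hsp-16.1 also holds the snRNA gene T27E4.11 and that of hsp-16.11 the snRNA gene T27E4.10, neither of which had a summit in its body. Both lie within the arms of the inverted repeat described below, so a missing summit there cannot be read as missing SEA-2.

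The strong peak at the first pair was accompanied by 2 weak summits. In replicate 2 a summit at position 1805793, inside hsp-16.41, ranked 29604 of 30000. In replicate 3 a summit at 1806027, ranked 8017, lay 152 bp past the end of hsp-16.41, in its window alone. Neither was found in a second replicate.

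Ranked by the best summit in its window, each duplicated pair was placed below hsp-16.2/hsp-16.41 in all 4 replicates. A pair without a summit was placed at 100%, which was so for hsp-16.1/hsp-16.48 in replicates 2 and 3. The mean position was then 85.9% ± 22.7 (SD, n = 4) for hsp-16.1/hsp-16.48 and 45.0% ± 29.6 for hsp-16.11/hsp-16.49. The difference from hsp-16.2/hsp-16.41 was 85.02 ± 22.3 percentage points for the first and 44.1 ± 29.9 for the second, and it was positive in 4 of 4 replicates for both. These differences are a description. The ranks of the duplicated pairs come from summits in the flanks, both pairs take the same summit in replicate 1, and no list held a summit in a promoter window without unique sequence, as set out below. A two-sided exact sign-flip permutation test over the replicates could give no p below 0.13, gave that value for each pair before and after Benjamini-Hochberg adjustment over the 2 pairs, and says nothing about SEA-2 between the duplicated genes.

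**Figure D2:**
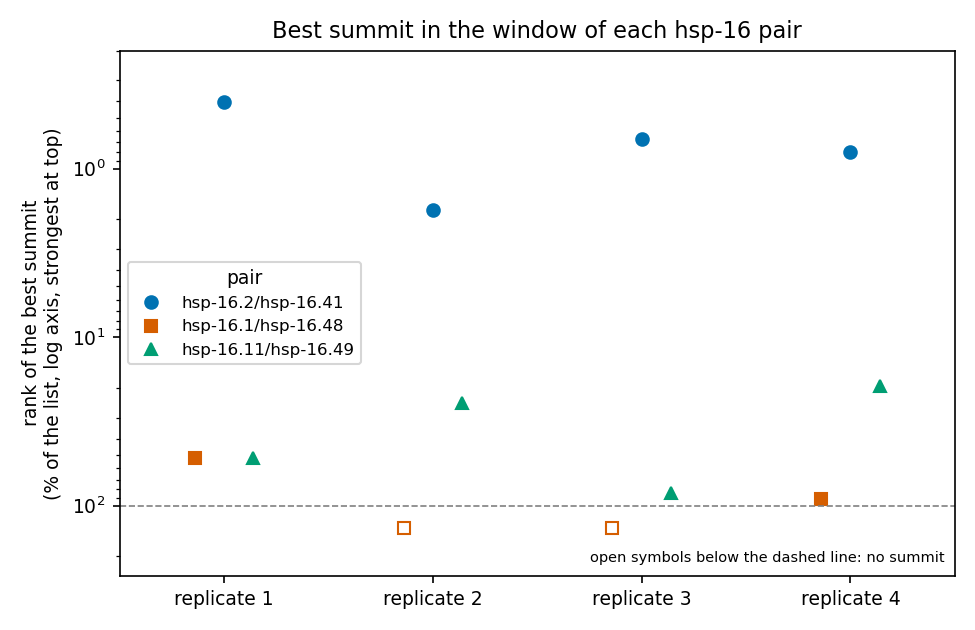
Rank of the best summit in the window of each hsp-16 pair, as a percent of the replicate's list (log axis, strongest at the top), for the 4 replicates. Points of hsp-16.2/hsp-16.41 lie between 0.405% and 1.76%, the other 2 pairs lie at 19.5% or lower down the list, and open symbols below the dashed line are windows with no summit.

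The 2 duplicated pairs are copies of each other, and sequence that occurs more than once gives reads that cannot be placed at 1 position. The 4 genes lie in the arms of an inverted repeat, chrV:9086851-9088741 and chrV:9089156-9091046, of 1891 bp each with 99.947% identity and 414 bp between them. Every weak summit described above lay outside these arms. A second, shorter repeat with 94.1% identity was found at chrV:9090678-9091058 and chrV:9091436-9091816. The replicate 4 summit downstream of hsp-16.11, at position 9091566, lay inside this second repeat. Between the coding starts, a distance of 348 bp in both, the pairs were identical at every base. The coding sequences of hsp-16.1 and hsp-16.11 were identical too, and so were those of hsp-16.48 and hsp-16.49. hsp-16.2 was 90.6% identical to hsp-16.1 in coding sequence, hsp-16.41 was 92.1% identical to hsp-16.48, and the interval between their coding starts was 79.4% identical to that of the duplicated pairs.

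Uniqueness was measured as the share of positions whose 36-base word (36-mer) occurs once in the genome, counting both strands. Between the coding starts it was 100% for hsp-16.2/hsp-16.41 and 0% for both duplicated pairs, against 92.1% over the nuclear genome, and the shares were the same with words of 50 and 100 bases. The gene bodies of the 4 duplicated genes had no unique 36-mer, while those of hsp-16.2 and hsp-16.41 had 98.7% and 99.1%.

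The deposited lists held almost no peaks in sequence of this kind anywhere. None of the final and none of the 3912 pooled peaks was without a unique 36-mer, nor were more than 1, 1, 0 and 2 peaks of replicates 1 to 4. Among promoter windows, 279 of 19985 had no unique 36-mer, and none of the 279 contained a summit in any of the 6 lists. Of the 17406 promoter windows in which every 36-mer was unique, 74 held a final summit, 642 a pooled one, and 1966, 1962, 2401 and 2226 a summit of replicates 1 to 4. The sources used here do not state how reads with several matches were treated, and whether SEA-2 was present between hsp-16.1 and hsp-16.48 or between hsp-16.11 and hsp-16.49 cannot be told from these lists.

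**Figure D3:**
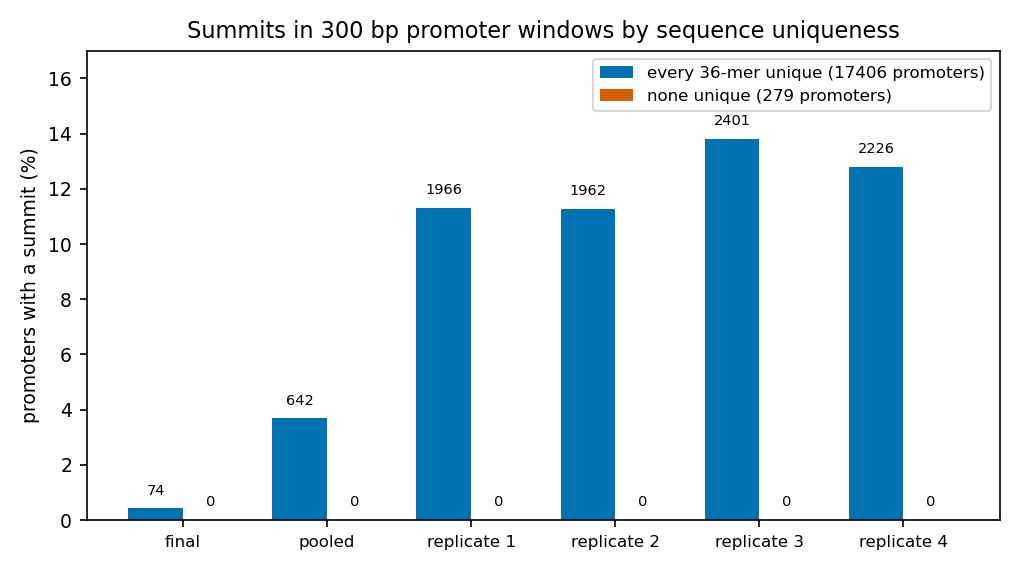
Share of 300 bp promoter windows that held a summit, in percent, in each of the 6 lists, for windows in which every 36-mer occurs once in the genome and for windows in which none does, with the number of windows holding a summit above each bar. The 279 windows without a unique 36-mer, which include those of the duplicated hsp-16 genes, show 0 in every list.

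The heat shock elements of hsp-16.2/hsp-16.41 were present in the same number in the duplicated pairs. Each had 4 matches, again 2 copies of TTCTAGAACATTC, at chrV:9087866-9087878 and chrV:9088020-9088032 in hsp-16.1/hsp-16.48. The 3 pairs thus accounted for 6 of the 254 genome occurrences of the word. The intervals of hsp-16.2/hsp-16.41 and of the duplicated pairs differ at other bases and in uniqueness, and the part of either in the missing peaks was not tested.

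Among 10 other small heat shock protein genes, a list that holds hsp-12.1, hsp-12.2, hsp-12.3, hsp-12.6, hsp-16.20, hsp-16.21, hsp-17, hsp-25, hsp-43 and sip-1, none had a final summit, beside 1.62% of all protein-coding genes. In the pooled list 3 of 10 had one (hsp-12.3 at rank 477, sip-1 at 982 and hsp-43 at 1222), beside the 17.2% of all protein-coding genes. Counts among the strongest peaks were 1, 0, 0 and 0 of 10 in replicates 1 to 4, beside 1.52% to 1.71% of all protein-coding genes, so counts of 0 in a list this short are near the background. The 1 gene was hsp-12.3, which ranked 66 in replicate 1, 7466 in replicate 2, 10553 in replicate 3 and 869 in replicate 4. The best hsp-12.3 ranks thus lay between 0.279% and 35.2% of the list.

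The list of 23 heat shock response genes held HSF-1, its regulators, daf-16, and the larger chaperones with their partners. Of these 23 genes, 5 had a final summit (21.7%), beside 1.62% of all protein-coding genes, and 15 a pooled one (65.2%), beside 17.2%. These background shares were not matched to the lengths of the listed genes. In the pooled list the share was lower, 10.7%, among genes of at most 1000 bp. Among the strongest peaks of a replicate the count was 4.75 ± 0.957 of 23 (SD, n = 4), beside 1.52% to 1.71% of all protein-coding genes. F44E5.4 and F44E5.5, divergent genes of the inducible HSP70 family, shared a final peak of rank 2, which ranked 1, 1, 1 and 74 in replicates 1 to 4. Between their coding starts 61.2% of the 36-mers were unique, and within the final peak 88.8%. hsp-110, which encodes a nucleotide exchange factor of HSP70, had the final rank 5. hsp-1, the constitutive cytosolic HSP70, and hsp-3, an HSP70 of the endoplasmic reticulum, had final ranks 199 and 198. Their best ranks varied between replicates 1 to 4, with 175, 3882, 378 and 158 for hsp-1. For hsp-3 they were 50, 110, 8885 and 4215. hsf-1 itself had no final or pooled summit, and its best ranks were 13999, 8466, 1976 and 7545 in replicates 1 to 4.

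**Figure D4:**
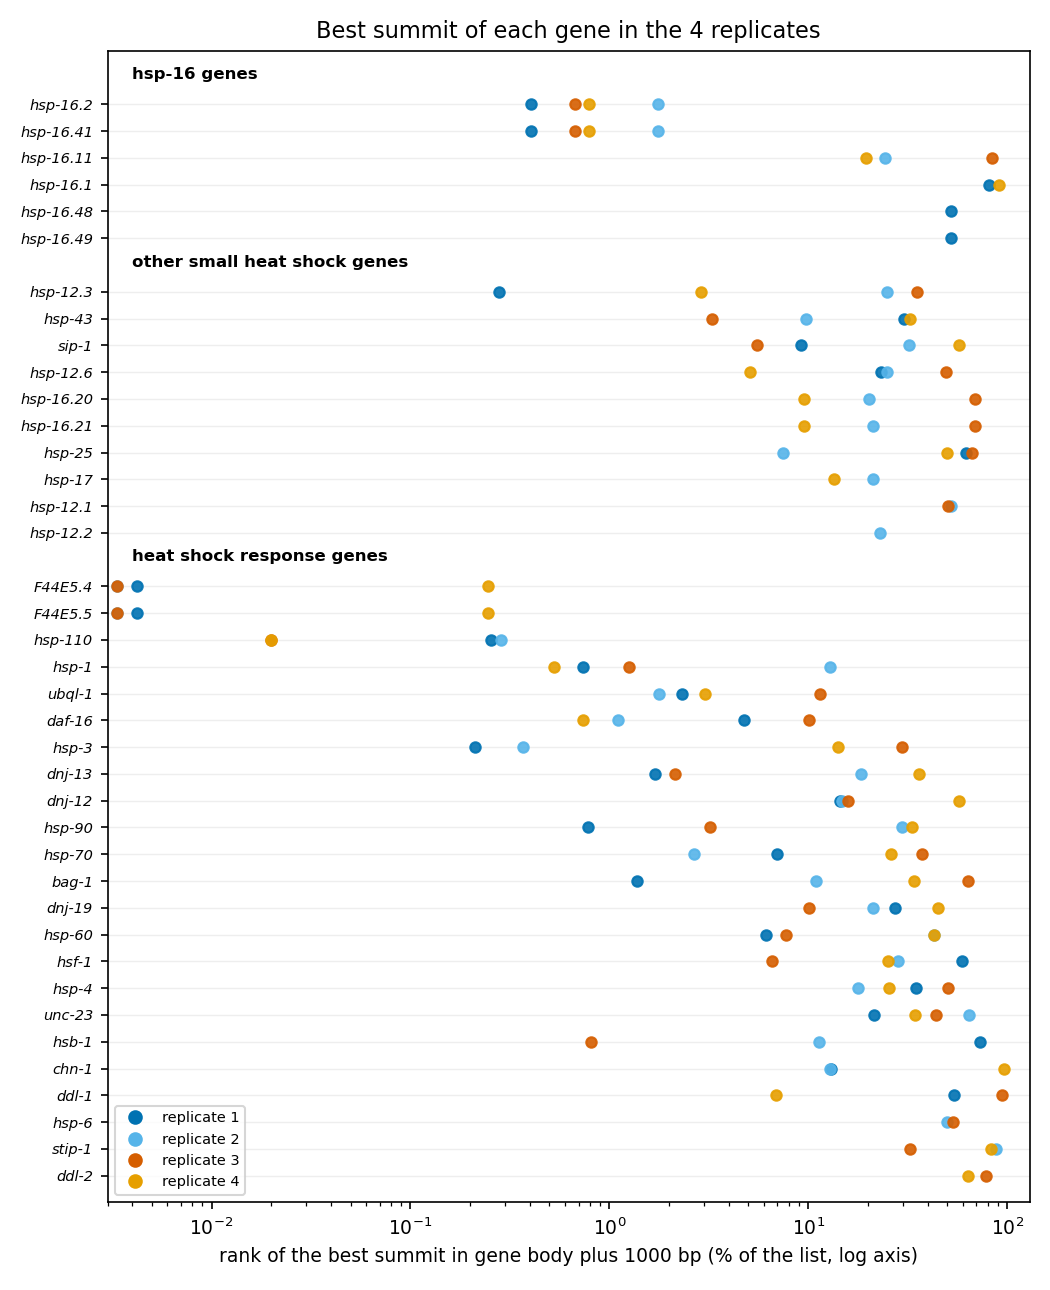
Rank of the best summit in the gene body and 1000 bp to each side, as a percent of the replicate's list (log axis), for the 6 hsp-16 genes, 10 other small heat shock genes and 23 heat shock response genes, with 1 point per replicate that had a summit. hsp-16.2 and hsp-16.41 have all 4 points at or below 1.76%, while the 4 duplicated hsp-16 genes have 1 to 3 points each, all at 19.5% or higher.

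The best ranks of the other small heat shock genes with a summit had medians of 23.3%, 22.03%, 50.02% and 11.5% of the list in replicates 1 to 4, and those of the heat shock response genes 5.42%, 12.9%, 10.8% and 26.2%. Over all protein-coding genes with a summit the medians were 35.03%, 32.8%, 33.2% and 32.8%. The hsp-16 genes with a summit, 5, 3, 3 and 4 of 6, had medians of 52.4%, 1.76%, 0.670% and 10.1%. hsp-16.2 and hsp-16.41, singled out because they hold the peak, lay at 0.405% to 1.76%. In the heat shock response list, F44E5.4, F44E5.5 and hsp-110 ranked nearer to the top than this in every replicate.

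The 5 final peaks whose ranks over the 4 replicates were most like those of the hsp-16.2/hsp-16.41 peak, by Euclidean distance between log10 ranks, had the nearest protein-coding starts F48C1.3, lin-36, Y37A1B.7, rsp-2 and F54F12.1. Distances ran from 0.223 for F48C1.3 to 0.455 for F54F12.1. The F48C1.3 peak ranked 73, 346, 221 and 248 in replicates 1 to 4, and the lin-36 peak 69, 378, 330 and 307. Replicate 2 had the highest rank number at both of these sites. They were chosen for ranks like those of the hsp-16.2/hsp-16.41 peak, so this is no separate observation about replicate 2. Only the summits near lin-36 and rsp-2 lay within 1000 bp of the named start, at 237 and 194 bp upstream.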

How the data were processed

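ChIP-seq peak lists on ce11 were used. Per the labels and the records deposited with the files, peaks were called by the authors for every replicate and for all 4 together, always against 1 control file, and the final list was thresholded by the irreproducible discovery rate. Aligner, caller, threshold and number of reads are not stated in the sources used here; depth is unknown. The deposited lists give a signal value of unstated scale, the −log10 of a q-value and a summit per peak. The final list was checked to hold the strongest peaks of the pooled list.

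A gene was counted when a summit lay in its body or within 1000 bp, on Ensembl release 115 models with RefSeq symbols. Ranks are by signal value within a list. Repeats were found with blastn 2.17.0, and k-mers counted with numpy 2.4.6. Of 24 listed heat shock response symbols, 23 matched a protein-coding gene. Gene counting and k-mer counting were tested on simulated data. The 6 genes and the gene lists were chosen with earlier results of these data known. Named are the 6 genes, genes in their windows, listed genes with a final summit or a summit among the strongest in at least 2 replicates, hsf-1 and the 5 nearest rank profiles. The genes hsp-12.3, sip-1 and hsp-43 were added once their values were known, and daf-16 is named only to describe its list. The alternatives were the flank, the overlap rule, the number of strongest peaks, ranking by q-value, k and leaving out replicates. Lists on ce10 were not used. Whether the replicates are independent cultures is not stated beyond the word biological.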

Additional observations from a re-analysis of the deposited data

Results flagged for a closer look

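The number of hsp-16 genes with a summit among the strongest peaks was 0 in replicate 2 and 2 in each of the other replicates, so that replicate stood apart from the rest. The 2 genes share 1 peak, which ranked 528 in replicate 2, so the count reflects a single site. Among the other small heat shock genes the count was 1 in replicate 1 and 0 in the others, through hsp-12.3. A value is flagged in this way in about 1 of 20 groups of samples by chance when values vary continuously. Counts this small take few values, and that rate does not hold for them. Where all counts but 1 are equal, the remaining count is always flagged, as in both cases here.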

How the results depend on the processing

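Over 18 results and 92 alternatives, 82 values stayed within 1.5 times the main count or within the spread between replicates. The number of hsp-16 genes with a final summit ranged from 0 to 2 when final peaks had to be found in every remaining replicate: it was 2 without replicate 2 and 0 without replicate 1, 3 or 4, since the peak is outside the strongest of replicate 2. With the stronger 50% of the final list, 3 heat shock response genes had a summit in place of 5. With a flank of 500 bp, the mean rank position of hsp-16.11/hsp-16.49 was 88.1% in place of 45.0%, because its summits lie more than 500 bp from the genes in 3 replicates. Over the whole pair windows the share of unique 36-mers was 97.2%, 30.6% and 28.4% for hsp-16.2/hsp-16.41, hsp-16.1/hsp-16.48 and hsp-16.11/hsp-16.49. In the 300 bp around the final summit, 2 of the 4 heat shock element matches remained. From the midpoint of the annotated starts, an alternative chosen after seeing the data, the summits lay 119.25 bp toward hsp-16.41. No paired analysis was possible because the samples form 1 group, with no second group to pair with it; differences between gene pairs were taken within each replicate. Unknown depth and the placement of reads in repeated sequence limit what a missing peak shows.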
